A study of Mus musculus with 9 samples.

Results

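The TAM receptors are the receptor tyrosine kinases encoded by Tyro3, Axl and Mertk, and their ligands are the secreted proteins encoded by Gas6 (growth arrest specific 6) and Pros1 (protein S). These 5 genes were taken by name, and all 5 were among the 18194 genes that the arrays measured through probe sets with a single gene symbol. Together they had 8 of 34958 such probe sets. Each gene is described by its brightest probe set (mean of 9 arrays), with its other probe sets beside it.

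Both ligands carry a domain of glutamate residues that a vitamin K-dependent carboxylase modifies, and in that form bind phosphatidylserine on the surface of dying cells and platelets. The other end of each ligand binds the receptors. Gas6 binds all TAM receptors, while protein S binds Tyro3 and Mertk and also acts outside this family as a cofactor that slows blood clotting. Receptor signalling drives macrophages to engulf dying cells, damps inflammatory and interferon signalling, and supports survival and migration of many cell types.

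The cells, called stromal in the labels, came from bone marrow of FVB/NJ mice after sorting out those that carry CD45.1 (on leukocytes) or Ter119 (on erythroid cells). Total RNA was measured on 9 Affymetrix mouse arrays with biotin labelling from the 3′ end. There were 3 arrays of wild-type mice (WT) and 6 of leukemic recipients. Of the recipients, 3 were in the early phase (E), when 1 to 5% of marrow cells were leukemic, and 3 in the medium phase (M), when 5 to 50% were. The leukemia model, the ages of the mice and any pooling of animals are not given in the sources used here, and the labels call the arrays of a group biological replicates. Latent and late phases are not analysed here. The question of the series is how expression in these cells shifts as leukemia advances. Values are log2 MAS5 signals, so that a difference of 1 is a 2-fold change, and 3 arrays a group set the precision.

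The M arrays stood apart from the others. The median over all probe sets was 6.26 ± 0.02 in M, against 5.64 ± 0.04 in WT (SD, n = 3 each), and was 5.50 ± 0.09 in E. Control RNAs added in fixed amounts before labelling (12 poly-A spike-in probe sets) read 9.85 ± 0.30 in M, against 8.86 ± 0.16 in WT and 8.80 ± 0.13 in E (SD, n = 3 each). Scaling the arrays on these controls therefore lowers every M minus WT difference by 0.99 and can turn a small one. The median difference between M and WT over all 18194 genes was 0.11, and -0.88 with that scaling. Calls of named genes that it ends or turns are marked.

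Promoter sequences of the members are shown because 4 of the 5 genes rose together in M. They were matched by symbol, 5 of 5, in RefSeq sequences of build GRCm38.p6, and run from 250 bases before to 50 bases after an annotated start. Capitals mark the GC box, the letters GGGCGG or their reverse complement CCGCCC, where overlapping matches form 1 longer run. The windows lie at chr8:13494486-13494785 on the minus strand for Gas6, chr16:62854057-62854356 on the plus strand for Pros1 and chr7:25788684-25788983 on the minus strand for Axl. Those of Mertk (chr2:128698665-128698964) and Tyro3 (chr2:119799264-119799563) lie on the plus strand.
Gas6: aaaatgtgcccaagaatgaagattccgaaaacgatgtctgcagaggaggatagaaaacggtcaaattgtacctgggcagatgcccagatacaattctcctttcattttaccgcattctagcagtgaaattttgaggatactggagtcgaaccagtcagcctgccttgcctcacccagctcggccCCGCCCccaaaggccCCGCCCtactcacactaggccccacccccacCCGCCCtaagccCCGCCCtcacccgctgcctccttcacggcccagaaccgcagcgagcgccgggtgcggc
Pros1: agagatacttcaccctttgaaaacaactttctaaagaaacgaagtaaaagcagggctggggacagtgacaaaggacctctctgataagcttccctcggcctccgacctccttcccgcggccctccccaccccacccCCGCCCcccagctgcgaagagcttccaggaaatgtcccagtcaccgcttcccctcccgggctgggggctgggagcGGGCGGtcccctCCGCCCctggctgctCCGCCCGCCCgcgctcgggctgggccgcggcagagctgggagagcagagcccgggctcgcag
Axl: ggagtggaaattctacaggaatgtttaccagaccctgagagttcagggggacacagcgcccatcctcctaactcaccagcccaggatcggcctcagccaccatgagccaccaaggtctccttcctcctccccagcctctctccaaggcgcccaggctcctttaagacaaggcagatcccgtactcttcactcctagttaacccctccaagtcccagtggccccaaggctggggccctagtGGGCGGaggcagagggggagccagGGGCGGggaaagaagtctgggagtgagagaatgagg
Mertk: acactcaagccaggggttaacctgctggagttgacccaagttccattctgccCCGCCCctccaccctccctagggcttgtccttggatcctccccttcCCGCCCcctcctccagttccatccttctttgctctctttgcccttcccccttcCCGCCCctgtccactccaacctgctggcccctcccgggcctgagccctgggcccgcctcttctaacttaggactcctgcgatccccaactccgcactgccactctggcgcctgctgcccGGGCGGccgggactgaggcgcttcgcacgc
Tyro3: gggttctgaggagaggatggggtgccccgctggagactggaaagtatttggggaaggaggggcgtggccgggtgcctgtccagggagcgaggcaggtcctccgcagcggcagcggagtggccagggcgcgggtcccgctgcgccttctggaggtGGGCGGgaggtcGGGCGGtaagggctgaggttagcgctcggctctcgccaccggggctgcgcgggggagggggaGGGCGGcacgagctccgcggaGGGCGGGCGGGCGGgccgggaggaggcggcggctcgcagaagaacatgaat

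The GC box, to which Sp1 and related factors bind, occurred 4 times in the Gas6 window, 5 times in Pros1, 2 times in Axl, 4 times in Mertk and 6 times in Tyro3. Of 32851 RefSeq promoter windows of the same length, 35.7% held it at least once, which is a share of windows and not a number of copies. The letters GGAATG, read by TEAD factors, occurred 1 time in the Axl window, in none of the other 4, and in 14.7% of all windows. The CCAAT box (CCAAT), the AP-1 site (TGANTCA) and the TATA box (TATAAA) were found in none of the 5 windows on either strand. Across all windows their shares were 37.4%, 7.81% and 13.6%. The GC content of the 5 windows ran from 58.3% in Gas6 to 73.3% in Tyro3. Of all windows, 67.1% had the content of Gas6 or less, and 94.9% that of Tyro3 or less. The motif counts were not compared with windows of like GC content.

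In M, both ligands and the receptor genes Axl and Mertk gave far higher signals than in WT and E, while none of the 5 genes passed the test between E and WT. Tested together with all 18194 genes, 4 of 5 members rose in M against WT, where 22.2% of all genes rose and 43.3% were called in either direction. In M against E 4 of 5 rose as well, where 24.1% of all genes did and 45.5% were called in either direction. The 2 comparisons share the M arrays. Tests are those of limma over all 9 arrays, with Benjamini-Hochberg adjusted p-values called under 0.05. In the main setting, which tests only the 9097 genes with the brighter mean signal (log2 6.83 or more), Gas6 and Pros1 were tested and Axl, Mertk and Tyro3 were not. Gas6 and Pros1 themselves passed that filter only through their M arrays, since their WT means and the E mean of Gas6 lie below it, so their tests and all counts are given without the filter. With it, 25.3% of the genes tested rose against WT and 26.1% against E, and 2.11% were called between E and WT.

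**Figure D1:**
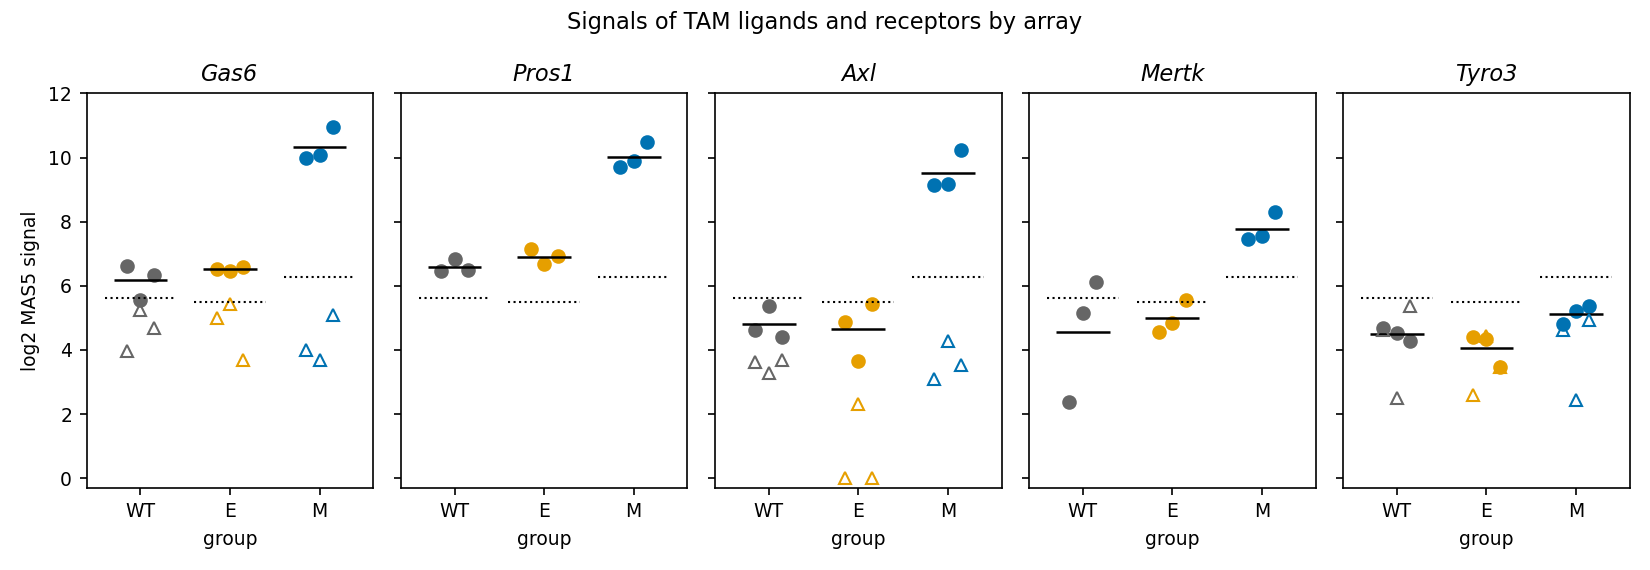
Log2 MAS5 signals of Gas6, Pros1, Axl, Mertk and Tyro3 in each array of WT, E and M, from replicate 1 to replicate 3 within a group. Filled circles are the main probe set, open triangles other probe sets of the gene, solid lines the group mean of the main probe set (n = 3) and dotted lines the median over all probe sets in that group. Main probe sets of Gas6, Pros1, Axl and Mertk lie above the dotted line in every M array, and those of Tyro3 lie below it in all 9 arrays.

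Gas6, the ligand shared by the whole receptor family, read 9.99, 10.07 and 10.96 in the M arrays, against 6.61, 5.56 and 6.35 in WT. The E arrays read 6.52, 6.46 and 6.58. The M arrays lie at least 3.38 above the highest WT or E array, while E arrays fall within the range of WT. Gas6 was 18.0-fold higher in M than in WT, with a log2 difference of 4.17 (SE 0.29, limma without the filter, adjusted p = 2.84e-07). Against E the difference was 3.82 (SE 0.29, adjusted p = 4.78e-07). As a description, 333 of all 18194 genes had a larger difference between M and WT. A second Gas6 probe set stayed low, at 4.25 ± 0.74 in M, against 4.63 ± 0.65 in WT and 4.70 ± 0.92 in E (SD, n = 3 each). It lies below the median of all probe sets in every array and differed by -0.37 between M and WT (adjusted p = 0.723 over all 34958 one-symbol probe sets). The 2 probe sets of Gas6 thus disagree, and the mean of both gave a difference of 1.90 between M and WT.

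Pros1, the ligand that also serves in blood clotting, read 9.72, 9.88 and 10.47 in M, against 6.47, 6.83 and 6.49 in WT. In E it read 7.13, 6.67 and 6.93. All M arrays were above all others, and 2 of the 3 E arrays lay above the WT range. The difference between M and WT was 3.43 (SE 0.21, limma without the filter, adjusted p = 9.70e-08), a 10.8-fold rise, and that between M and E was 3.11 (SE 0.21, adjusted p = 1.84e-07). Pros1 has 1 probe set with a single symbol. The rise of Gas6 exceeded that of Pros1 by 0.74, and the Gas6 minus Pros1 value was between 0.19 and 0.48 in M arrays, against -1.27 to 0.15 in WT arrays. These ranges do not overlap, and exact permutation, two-sided, gave p = 0.1, which is the lower limit with 3 arrays a group (0.267 adjusted over 8 such tests).

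Axl, the receptor bound by Gas6 alone, read 9.13, 9.19 and 10.23 in M, against 4.63, 5.39 and 4.41 in WT. Its E arrays read 4.89, 3.65 and 5.42. All WT and E arrays lie below the median of all probe sets of their groups, and all M arrays lie well above theirs. Axl rose 26.1-fold, by 4.71 on the log2 scale (SE 0.48, limma without the filter, adjusted p = 6.16e-06), and by 4.87 against E (SE 0.48, adjusted p = 3.68e-06). Of all 18194 genes, 174 had a larger difference between M and WT. A second Axl probe set, whose name marks it as able to bind other transcripts too, read 3.64 ± 0.60 in M, against 3.52 ± 0.22 in WT (SD, n = 3 each, adjusted p = 0.936). In E it was listed at 0 in 2 arrays and at 2.32 in the other (adjusted p = 0.272 against WT). This probe set thus did not pass between M and WT, while between M and E it differed by 2.87 (limma over all one-symbol probe sets, adjusted p = 0.0184), with the 2 zeros of E in that value.

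Mertk, the receptor best known for engulfment of dying cells by macrophages, read 7.46, 7.56 and 8.31 in M, against 2.38, 5.17 and 6.13 in WT. The E arrays read 4.57, 4.83 and 5.57. The M arrays were again above all others, by at least 1.33, but the WT arrays were spread widely, with WT replicate 1 far below the rest. Mertk was 9.31-fold higher in M than in WT, with a log2 difference of 3.22 (SE 0.76, limma without the filter, adjusted p = 0.00378). Without WT replicate 1 the difference was 2.13. Against E it was 2.79 (SE 0.76, adjusted p = 0.00880), and 1.74 after spike-in scaling. Mertk has 1 probe set with a single symbol.

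Tyro3, the receptor most studied in the nervous system, read 4.80, 5.22 and 5.37 in M, against 4.67, 4.53 and 4.27 in WT, and 4.39, 4.33 and 3.48 in E. Although the M arrays lay above the other 6 arrays, the nearest were 0.13 apart, and every value was under the median of all probe sets of its group. Such separation of M from WT was found in 52.7% of all 18194 genes, and of M from E in 54.8%. The difference of 0.64 between M and WT (95% interval -0.48 to 1.76, limma without the filter, adjusted p = 0.363) was about as large as the 0.63 by which the median over all probe sets was higher in M. With spike-in scaling it was -0.35. The difference of 1.06 between M and E did not pass either (95% interval -0.06 to 2.18, adjusted p = 0.116), and the other Tyro3 probe set read 4.00 ± 1.35 in M, against 4.16 ± 1.49 in WT (SD, n = 3 each).

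Changes were also compared between members, where 3 arrays a group cannot pass the threshold. The Axl minus Tyro3 value ran from 3.97 to 4.86 in M arrays, against -0.04 to 0.86 in WT arrays, and the M minus WT difference of Axl exceeded that of Tyro3 by 4.07. The rise of Mertk exceeded that of Tyro3 by 2.58, with ranges that do not overlap (2.34 to 2.94 in M, against -2.29 to 1.86 in WT). Each of these 2 tests gave the lower limit (p = 0.1 by exact permutation, 0.267 adjusted over 8 tests). Axl rose by 1.49 more than Mertk, but here the ranges overlapped (1.63 to 1.92 in M, against -1.72 to 2.25 in WT, exact permutation p = 0.4, 0.8 adjusted). The WT values of -2.29 and 2.25 are both from WT replicate 1, where Mertk read 2.38. These differences between members were not computed without that array.

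**Figure D2:**
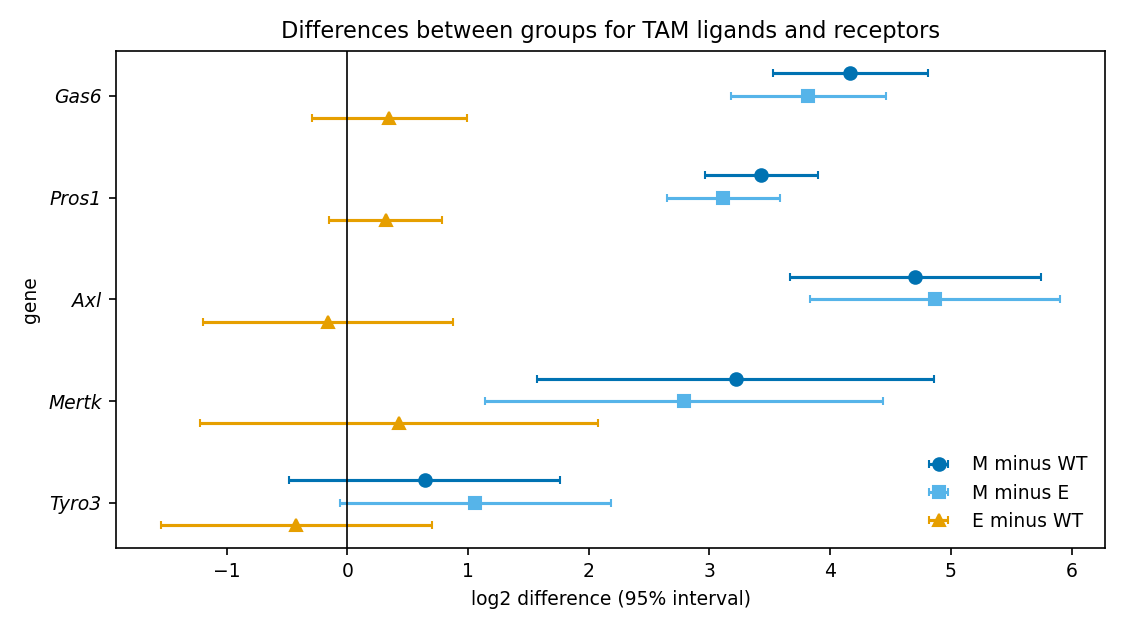
Log2 differences between groups for each member, with 95% intervals from limma over all 18194 genes and 9 arrays. The intervals of M minus WT and M minus E lie above 0 for Gas6, Pros1, Axl and Mertk, and those of E minus WT include 0 for all 5 genes.

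Between E and WT, 0 of 5 members passed, where 0.852% of all 18194 genes did, and 0 of 5 had an unadjusted p under 0.05 (1939 of all genes had). The arrays of E and WT overlapped for the main probe sets of all 5 members, while 20.8% of all genes did not overlap. In the second Axl probe set they did not overlap, with E at 0 to 2.32 and WT at 3.27 to 3.68, and the difference did not pass (limma over all one-symbol probe sets, adjusted p = 0.272). The difference for Gas6 was 0.35 (95% interval -0.29 to 0.99, limma without the filter, adjusted p = 0.730) and that for Pros1 0.32 (-0.15 to 0.79, adjusted p = 0.648). Differences above 0.99 for Gas6 and above 0.79 for Pros1, those of M included, are outside these intervals. The intervals of the receptors were wider. They ran from -1.20 to 0.88 for Axl, from -1.22 to 2.07 for Mertk and from -1.54 to 0.70 for Tyro3. The order of the levels in the main probe sets was therefore M above both other groups for the 4 genes that rose, and E and WT did not differ beyond the spread of their arrays.

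**Figure D3:**
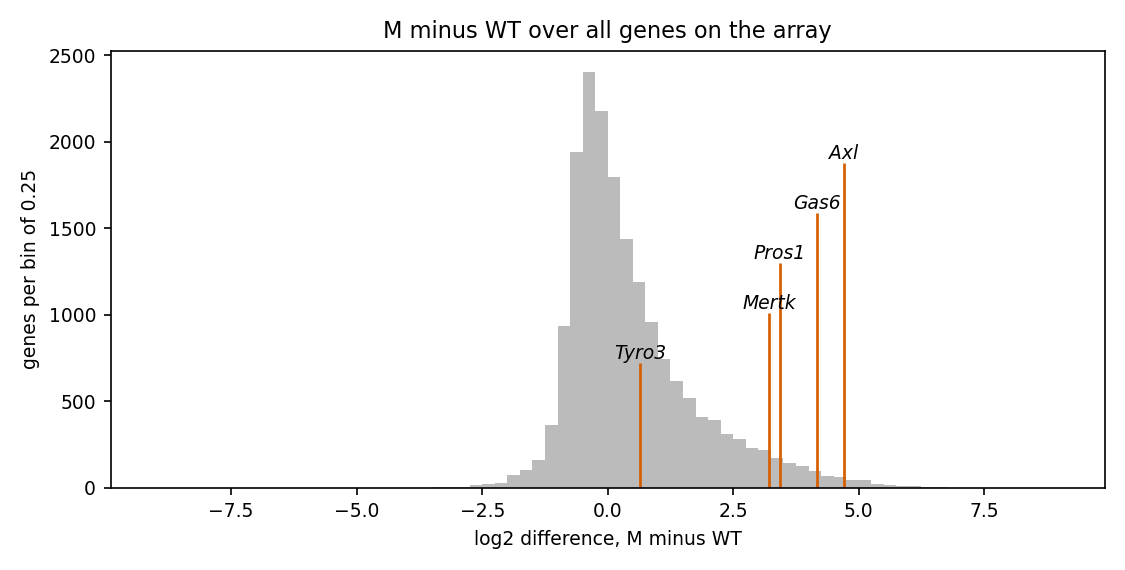
Number of genes (vertical axis) by log2 difference between M and WT in bins of 0.25 (horizontal axis) for all 18194 genes on the array. Orange lines mark the members, and their heights only separate the names. Axl, Gas6, Pros1 and Mertk lie in the upper tail, and Tyro3 at 0.64 lies within the main body of the distribution.

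M replicate 3 gave the highest M signal for each of the 5 members, by 0.36 (Tyro3) to 1.07 (Axl) over the mean of the other 2 M arrays. Over all 18194 genes the median of that difference was 0.02, and it was above 0 in 51.7%. Summed signals of the related gene and marker lists given below were also highest in M replicate 3, except for erythroid markers. Pan-leukocyte markers summed to 17338 there, against 10789 and 9390 in the other 2 M arrays. Erythroid markers summed to 28641, against 62717 and 59030.5. Without M replicate 3 the rise against WT was 3.86 for Gas6, 3.21 for Pros1, 4.35 for Axl and 2.95 for Mertk, and 4 of 5 members still passed. Axl, Mertk and Tyro3 lie under the brightness filter and were left out of a search for like genes. Gas6 and Pros1 passed that filter only through their M arrays. The search covered the 9097 genes over the filter. The genes most like a ligand over the 9 arrays were chosen by the smallest root mean square difference of log2 values after each gene was centred on its own mean. For Gas6 these were Ccl11, an eosinophil-attracting chemokine (0.21), Lyz2, a lysozyme of myeloid cells (0.25), and the actin-binding protein gene Ablim1 (0.26). For Pros1 they were Fkbp7, a prolyl isomerase of the endoplasmic reticulum (0.13), the matrix-associated gene Aebp1 (0.15) and Arhgap29 (0.16). The 2 ligands stood at 0.50 from each other. All 6 like genes were far higher in M than in WT, by 3.29 (Arhgap29) to 4.58 (Ccl11). How much of each distance comes from group means and how much from single arrays was not tested.

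In arrays of mixed cells, fewer cells of a type and less RNA per cell cannot be told apart. Markers of several cell types moved together with the TAM genes. Over all 18194 genes 22.2% rose and 21.1% fell in M against WT, and with spike-in scaling 10.2% rose and 43.8% fell. Of 12 mesenchymal niche markers 12 rose in M (11 with spike-in scaling), and their summed linear signal was 57251 to 70056 in M arrays, against 4192 to 4744 in WT and 5233 to 5702 in E. Col3a1, Col1a1 and Cxcl12, the brightest of them, encode 2 fibrous collagens and the chemokine that holds blood stem cells in the marrow. Col3a1 averaged 14.62 in M, against 10.41 in WT, Col1a1 13.10 in M, against 10.67 in WT, and Cxcl12 12.79 in M, against 8.63 in WT. These means lie above the median of all probe sets in WT too, as does that of the stromal receptor gene Lepr (12.14 ± 0.18 in M, against 6.95 ± 0.39 in WT, SD, n = 3 each). Col1a1 was also 0.66 higher in E than in WT (limma adjusted p = 0.0448). This call was lost with spike-in scaling or quantile normalization and kept with median centring. With spike-in scaling 1 other marker of the 12 was called higher in E, and with median centring 2 were, Col1a1 among them. Of 10 endothelial markers 9 rose in M (sum 2646 to 3705, against 811 to 950 in WT), and 4 with spike-in scaling. All 10 granulocyte markers rose (93442 to 112954 in M, against 9895 to 10981 in WT), 8 with spike-in scaling, and 5 of them rose and 1 fell in E, where the TAM genes were not called. In M so did all 8 pan-leukocyte markers (9390 to 17338, against 4732 to 5246), 3 with spike-in scaling.

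Macrophages are the classic site of Mertk, and the array held 14 of their markers. Of these 3 rose and 1 fell in M, where 22.2% of all 18194 genes rose and 21.1% fell. With spike-in scaling 0 rose and 2 fell, where 10.2% of all genes rose and 43.8% fell. The 3 rises are thus near the share of all genes. The 3 were Adgre1, which encodes the surface protein F4/80 (difference 2.00, limma adjusted p = 0.000859), the lysosomal gene Cd68 (1.74, adjusted p = 0.00148, a call lost like that of Adgre1 with spike-in scaling) and the mannose receptor gene Mrc1 (0.84, adjusted p = 0.0453, turned to -0.16 with spike-in scaling). The summed signal of all 14 was 1322 to 1483 in M arrays, against 1063 to 1290 in WT, and was 690 to 849 in E. The scavenger receptor gene Cd163 fell by 1.69 (adjusted p = 0.00151). The complement genes C1qa, C1qb and C1qc of tissue macrophages averaged 3.43, 5.32 and 2.64 in M, against 1.96, 4.32 and 2.29 in WT, and none passed. Timd4 was listed at 0 in at least 1 WT array. Csf1r, the receptor of the macrophage growth factor, read 9.53 ± 0.07 in M, against 9.66 ± 0.16 in WT (SD, n = 3 each, limma adjusted p = 0.438), with a difference of -1.12 after spike-in scaling, where it is 1 of the 2 that fell. In E it read 8.78 ± 0.17 and had fallen by 0.88 against WT (adjusted p = 0.00251), a call lost with spike-in scaling. Csf1r, the only marker of the 14 over the brightness filter, weighs more in the summed signals above than any other. Of 7 megakaryocyte and platelet markers, 5 rose and 1 fell in M (1856 to 2269, against 1177 to 1321 in WT), and 0 rose with spike-in scaling. Erythroid markers were, despite the sort on Ter119, bright in every group (28641 to 62717 in M, against 52197 to 57862 in WT and 43975 to 46122 in E), with 0 of 7 risen and 1 fallen in M (0 and 4 after spike-in scaling, and 3 and 1 if M replicate 3 is left out). The M minus WT differences of the brightest markers on the remaining lists were of varied size. S100a8, a neutrophil calcium-binding protein, differed by 5.65, Ctsg by 2.45 and Mpo, both granule enzymes, by 1.13. Ptprc, which encodes CD45, differed by 0.87, Laptm5 by 0.52 and the signalling adaptor gene Tyrobp by 1.48. The endothelial junction genes Esam and Cldn5 differed by 1.77 and 1.64, and Plvap by 0.94. The platelet genes Pf4, Ppbp and Itga2b differed by 0.64, 1.48 and 0.93, and the erythroid genes Slc4a1, Klf1 and Ermap by -0.02, -0.56 and -0.33. With spike-in scaling S100a8 and Ctsg kept their calls, the calls of the other named granulocyte, leukocyte, endothelial and platelet genes were lost, and the differences of Ptprc, Laptm5, Plvap, Pf4 and Itga2b turned below 0. The part of any of these cell types in the TAM result was not tested.

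**Figure D4:**
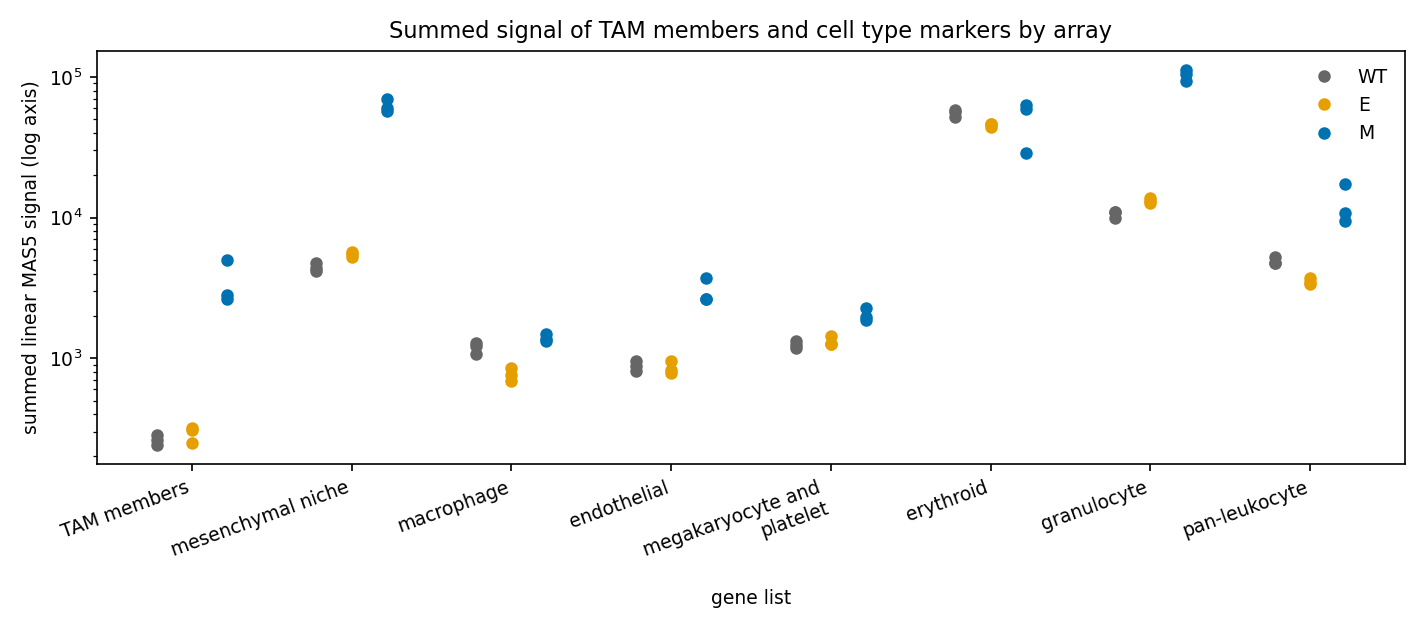
Summed linear MAS5 signal (log axis) of the TAM members and of 7 lists of cell type markers (horizontal axis), 1 point an array, for WT, E and M. The TAM members sum to 2623 to 4974 in M, against 242 to 282 in WT and 251 to 319 in E. The mesenchymal and granulocyte sums are also far higher in M. The macrophage sums, in which Csf1r weighs most, are 1322 to 1483 in M, against 1063 to 1290 in WT.

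The genes that make and share the Gla domain were followed next, all without the brightness filter, where the median difference between M and WT over 18194 genes was 0.11, 22.2% of them rose and 21.1% fell. With median centring 13.4% rose and 38.5% fell, and with spike-in scaling 10.2% rose and 43.8% fell. The counts of this and all other lists are to be read against these shares. Of 4 genes of vitamin K carboxylation, 3 rose in M and 1 did not pass (0 rose and 1 fell with median centring or spike-in scaling). They were the carboxylase gene Ggcx (7.51 ± 0.19 in M, against 6.31 ± 0.30 in WT, SD, n = 3 each, limma adjusted p = 0.00260), Vkorc1, the vitamin K reductase blocked by warfarin (difference 0.80, adjusted p = 9.08e-05), and the protease gene Furin (0.58, adjusted p = 0.000612). The last 2 turned to -0.20 and -0.41 with spike-in scaling. The related reductase gene Vkorc1l1 did not pass (-0.20, adjusted p = 0.178). Of 11 other Gla protein genes measured, 5 rose and 6 did not pass in M (3 rose with spike-in scaling). Mgp, the calcification inhibitor of cartilage and vessel wall, read 13.98 ± 0.18 in M, against 11.11 ± 0.11 in WT (SD, n = 3 each, adjusted p = 7.40e-10). It was the 1 gene of the list called in E, where it fell by 0.67 (adjusted p = 0.00460), a call lost with median centring or spike-in scaling. F7, clotting factor VII, named after its values were seen, rose by 4.83 (9.11 ± 0.08 in M, against 4.28 ± 0.88 in WT, SD, n = 3 each, adjusted p = 2.49e-06). Prrg1, a membrane Gla protein, rose by 1.02 (adjusted p = 0.00186), a call lost with median centring or spike-in scaling. Prrg2 did not pass (0.25, limma adjusted p = 0.482), nor with spike-in scaling (-0.75, limma adjusted p = 0.0639).

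Other proteins act on the same receptors. Lgals3, a galectin reported to bind Mertk, read 12.68 ± 0.48 in M, against 9.22 ± 0.08 in WT (SD, n = 3 each), a difference of 3.46 (limma adjusted p = 1.72e-08). The other listed Mertk ligand genes, Tub and Tulp1, did not pass. The proteases that cut Axl and Mertk from the cell surface were bright in all groups and did not pass in M, with differences of -0.21 for Adam10 (adjusted p = 0.0917) and 0.05 for Adam17 (adjusted p = 0.666). With median centring or with spike-in scaling both fell. Timp3, an inhibitor of Adam17, read 11.65 ± 0.52 in M, against 8.03 ± 0.27 in WT (SD, n = 3 each, adjusted p = 2.36e-07). In E it read 6.21 ± 0.36 and had fallen by 1.82 against WT (adjusted p = 0.00299), the largest E difference among the called genes of these pathway lists.

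Of 21 other genes of phosphatidylserine bridges and receptors, 9 rose, 0 fell and 12 did not pass in M, and with spike-in scaling 8 rose and 2 fell. Edil3 and Mfge8 encode bridging proteins that tie phosphatidylserine to integrins. Edil3 rose by 4.21 (10.54 ± 0.76 in M, against 6.32 ± 0.37 in WT, SD, n = 3 each, limma adjusted p = 5.39e-07) and Mfge8 by 2.68 (adjusted p = 3.61e-07). Their integrin partner Itgav rose by 2.95 (12.13 ± 0.33 in M, against 9.18 ± 0.04 in WT, SD, n = 3 each, adjusted p = 5.16e-09). Itgav also fell by 0.67 in E (adjusted p = 0.0363), a call lost with each of the 3 other scalings. Lrp1, a large endocytic receptor, rose by 3.79 (adjusted p = 7.80e-08). The receptor genes Timd4 and Havcr1 did not pass (limma adjusted p = 0.998 and 0.590), with Havcr1 at 2.14 in M, against 2.90 in WT.

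The intracellular lists moved in both directions. Of 10 engulfment machinery genes, 5 rose and 2 fell in M (3 and 3 with spike-in scaling). The exchange factor genes Dock1 and Trio rose by 2.03 and 1.96 (limma adjusted p = 4.39e-06 and 4.28e-06), while Rac1, the GTPase they act on, fell by 0.32 (adjusted p = 0.00109). The adaptor gene Crk rose by 0.75 (adjusted p = 1.89e-05) but read -0.24 with spike-in scaling. Of 5 genes of phosphatidylserine exposure, 3 rose and 1 fell (1 and 2 with spike-in scaling). Atp11a, a flippase that keeps phosphatidylserine inside, rose by 3.55 (adjusted p = 1.84e-07) and Ano6, a scramblase that exposes it, by 1.47 (adjusted p = 5.00e-06, lost with spike-in scaling). Tmem30a, the subunit that flippases need, rose by 0.90 (adjusted p = 6.28e-05) and was at -0.09 with spike-in scaling, and Plscr1 fell by 0.35 (adjusted p = 0.00425).

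Of 11 genes of TAM signalling and feedback, 6 rose, 2 fell and 3 did not pass in M, where 22.2% of all genes rose and 21.1% fell. With spike-in scaling 2 rose and 6 fell, where 10.2% of all genes rose and 43.8% fell. Socs3, a cytokine feedback inhibitor that TAM signalling induces in dendritic cells, had the largest rise of the list, 33.5-fold (13.00 ± 0.12 in M, against 7.94 ± 0.44 in WT, SD, n = 3 each, limma adjusted p = 8.77e-10). In E it read 7.89 ± 0.16. The transcription factor gene Twist1, named after its values were seen, rose by 4.47 (adjusted p = 5.47e-06) from a WT mean of 4.35. The phospholipase gene Plcg1 rose by 1.10 (adjusted p = 4.15e-05, lost with spike-in scaling), and the receptor adaptor gene Grb2 fell by 0.34 (adjusted p = 0.00356). Ifnar2, a subunit of the interferon receptor that partners Axl in feedback, rose by 0.41 (adjusted p = 0.00212), which turned to -0.58 with spike-in scaling. Of 6 genes of nuclear receptors of engulfment and their targets, 4 rose and 2 did not pass, and with spike-in scaling 1 rose and 1 fell. The cholesterol exporters Abca1 and Abcg1, targets of LXR receptors, rose by 2.98 and 1.65 (adjusted p = 1.22e-08 and 0.000303, the second lost with spike-in scaling), and Rxra, the shared receptor partner, did not pass (-0.15, adjusted p = 0.723).

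**Figure D5:**
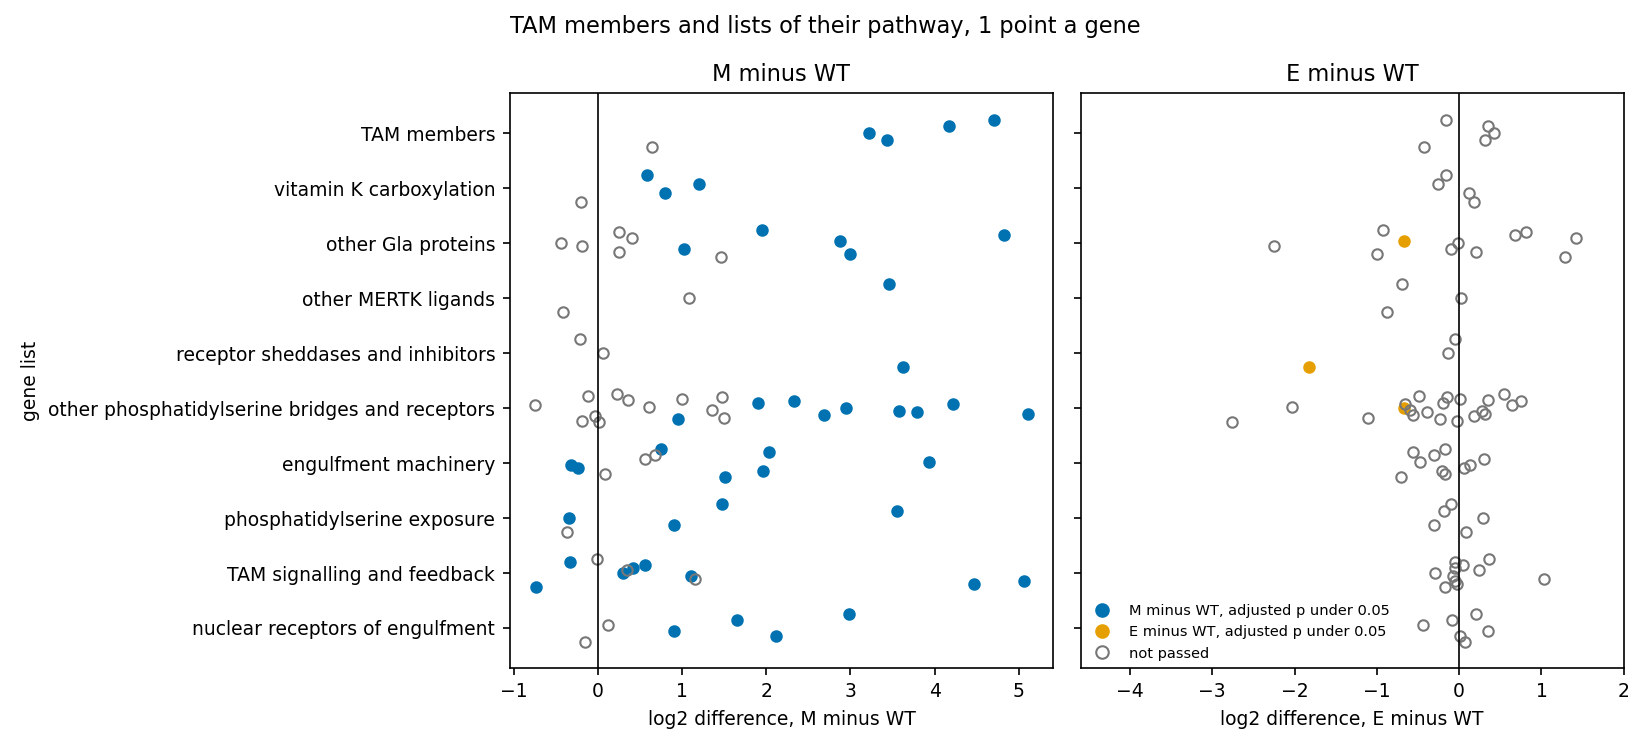
Log2 differences of M minus WT (left) and E minus WT (right) for the TAM members and 9 lists of related genes (vertical axis), 1 point a gene, filled where the adjusted p was under 0.05 in limma over all 18194 genes. In M 4 of 5 TAM members are filled, and in E the filled points are Mgp, Timp3 and Itgav, all below 0.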

How the data were processed

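Arrays were grouped by their titles. Per the submitters' processing notes the authors made the values, on a log2 scale, with MAS5 (version not given). Each array's linear mean, trimmed by 2% at each end, was 500, and scanner files and detection calls were not used here. Of 45101 probe sets, 34958 had a single gene symbol in the array annotation, 932 had several and 9211 were not listed, and probe sets of these other kinds were left out. A linear model of all arrays was fitted in R 4.3.3 with limma 3.58.1 (eBayes with an intensity trend, Benjamini-Hochberg, called under 0.05). The main setting used the 9097 genes at or above the median brightness, and the same model over all 18194 genes covered members below it. Probe sets of the members were tested over all 34958. Differences between members were tested by exact permutation in SciPy 1.17.1. The model was tested on simulated data of 9097 genes for M against WT. There 87.2% of 200 planted log2 changes of 1 were recovered, with 10.4 false calls on average. That setting differs from the tests over all 18194 genes.

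The members and lists were chosen with earlier results of these data known. Genes named were the members, the 4 genes of each pathway list over the brightness filter with the smallest p in M against WT, genes called in E, the 3 brightest markers of each list, and the 3 genes most like a ligand. Ggcx, F7, Tub, Tulp1, Timd4, Havcr1, Twist1, Lepr, Adgre1, Cd163 and the C1q genes are outside this rule and were chosen after their values were seen. Some genes of the lists are not analysed here. Alternatives are given in the closing section.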

Additional observations from a re-analysis of the deposited data

How the results depend on the processing

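Each array was left out in turn, and pseudocounts of 16 and 64, no filter, a stricter filter, 3 scalings, 2 variance models, the mean of probe sets, only the groups compared and a replicate block were tried. The counts of all 5 members (0 in E against WT, 4 in M against WT and 4 in M against E) were the same in the 12 alternatives run without the filter, which were chosen after seeing the data. In the main filtered setting 2 members were called in M against WT and in M against E, 3 with a pseudocount of 64, which lets 3 members pass the filter, 4 with no filter and 0 with only the brightest 4549 genes, which hold no member. Genes called between E and WT numbered 192, but 85 among the brightest 4549, 118 with quantile normalization, 848 with array weights, 99 with the mean of probe sets, 756 with only the 2 groups compared, and 98 to 836 with 1 array left out, the highest without M replicate 3. The brightest 4549 genes gave 3466 genes called in M against WT and 3485 in M against E, against 6259 and 6368, with fewer genes tested. The share of higher calls was 36.8% in M against WT and 37.3% in M against E, but 15.97% and 14.9% with median centring and 11.9% and 12.3% with spike-in scaling. In E against WT it was 21.9%, and 55.98% with median centring. Without the filter it was 51.2% in M against WT, 25.9% with median centring and 18.8% with spike-in scaling, and in E against WT 18.7%, 45.6% and 27.3%. Differences of E against WT that did not pass changed sign for Axl (0.038 with quantile normalization, 0.13 without WT replicate 2, 0.34 without E replicate 2, and -0.55 to 0.34 with 1 array left out) and for Mertk (-0.66 to 1.21 with 1 array left out), and that of Tyro3 in M against WT was -0.35 with spike-in scaling. The cause was not tested. With the replicate block the genes called were 153, 6100 and 6248 in E against WT, M against WT and M against E, and no call of Gas6 or Pros1 changed. Deviations of same-numbered arrays from their group means correlated between -0.098 and 0.084, and those of differently numbered arrays between -0.090 and 0.086. The labels give only a replicate number, and whether same-numbered arrays share a batch was not tested.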
